A study of Mus musculus with 15 samples.

Results

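The neuromuscular junction genes described here are 10 genes that build the synapse between a motor nerve and a skeletal muscle fibre: Chrna1, Chrnb1, Chrnd, Chrne, Musk, Lrp4, Dok7, Rapsn, Ache and Colq. They were chosen by name as acetylcholine receptor and synapse assembly genes, and all 10 were found among the 55416 genes measured. Expression was measured by RNA sequencing of the tibialis anterior, which lifts the foot, in 15 total RNA libraries of C57BL/6 (C57BL/6NCrlOri) mice. The stated aim of the series was to look for treatment targets for cachexia, in which cancer wastes the muscles, and for adverse effects of immune therapy on muscle.

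In 3 of the 4 groups, male mice 6 to 8 weeks old had received 5000000 cells of the tumour line KrasIKKaL into the trachea. Of these tumour-bearing mice, the anti-PD-L1 group (n = 3) was given 200 µg per kg of an antibody against the immune checkpoint ligand PD-L1. The anti-CD8a group (n = 3) was given 200 µg of anti-CD8a antibody, which binds a surface protein of cytotoxic T cells. Both antibodies were given 3 times a week into the abdomen. The IgG group (n = 4), whose treatment label reads anti-IgG, was given an isotype antibody, rat IgG2b, at a dose that the labels do not state. The control group (n = 5) had no tumour cells and no antibody is named for it, and the age and sex of its mice are not stated. So wherever a tumour-bearing group is set against control, effects of tumour, antibody and any difference in age or sex cannot be told apart. Whether the libraries of a group are separate mice is not stated, so p-values measure the spread between libraries.

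Library totals were 17825793 to 22459348 expected counts in anti-PD-L1, 18525199 to 20019333 in anti-CD8a, 15894804 to 18768534 in IgG and 17664333 to 19786213 in control. Mitochondrial genes took 11.1% to 14.4% of counts in anti-PD-L1, 20.2% to 23.1% in anti-CD8a, 12.8% to 16.7% in IgG and 17.6% to 23.0% in control, so anti-PD-L1 and IgG lay below the other groups, and the part of this share in the results was not tested. The first principal component of log2 CPM (counts scaled to library size) held 56.1% of the variance and placed the IgG libraries at 38.0 to 92.3 and the control libraries at -59.5 to -43.6. IgG replicate 2, at 38.0, was the IgG library nearest to control. Anti-PD-L1 replicate 2, at 60.5, was the anti-PD-L1 library farthest from it. Calls of the 10 genes that change without either are therefore given. Leaving either out moves anti-PD-L1 and IgG apart on this component, so calls gained between them are not separate evidence. The 8 myofibre markers summed to 72618 CPM or more in every library. The motor neuron markers Chat, Slc18a3 and Mnx1 were at 0 in all 15 libraries. A count of 0 there allows at most 0.134 to 0.189 CPM by library, scaled to the raw library total.

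At the junction the nerve releases acetylcholine, which opens a receptor made of alpha, beta, delta and, in adult muscle, epsilon subunits in the muscle membrane. The nerve also secretes agrin, which binds LRP4 and so switches on the receptor kinase MuSK. DOK7 holds MuSK active inside the fibre, and rapsyn, encoded by Rapsn, anchors the acetylcholine receptors in a dense cluster. Acetylcholinesterase, encoded by Ache, ends each signal by splitting acetylcholine, and the collagen tail ColQ fixes the enzyme in the synaptic basal lamina. Genes of the junction are transcribed mainly by the few nuclei that lie under it, and muscle that loses its nerve switches several of them on along the whole fibre.

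In rodent muscle, regulatory sites upstream of junction genes include the E-box CANNTG, bound by myogenic factors such as MyoD and myogenin, and the N-box CCGGAA, bound by GABP. The 250 bases before the start site of 5 of the genes are shown because these genes include both a gene lower in IgG muscle than in control (Ache) and genes higher in IgG muscle (Chrna1, Chrnb1, Musk), together with the adult subunit gene Chrne. RefSeq (GRCm38.p6) gave a start for 6 of the 10 genes, the sixth being Dok7. Chrnd, Lrp4, Rapsn and Colq were not matched. Each sequence runs 5′ to 3′ on the strand of the gene, and capitals mark CANNTG on either strand and CCGGAA on either strand.
Ache, chr5:137288004-137288253, plus strand: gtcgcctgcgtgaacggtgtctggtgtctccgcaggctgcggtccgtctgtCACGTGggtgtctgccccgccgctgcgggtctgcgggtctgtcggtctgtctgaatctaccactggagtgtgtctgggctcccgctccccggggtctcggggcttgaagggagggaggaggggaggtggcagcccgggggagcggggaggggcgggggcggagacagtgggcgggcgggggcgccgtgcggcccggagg
Chrna1, chr2:73580339-73580588, minus strand: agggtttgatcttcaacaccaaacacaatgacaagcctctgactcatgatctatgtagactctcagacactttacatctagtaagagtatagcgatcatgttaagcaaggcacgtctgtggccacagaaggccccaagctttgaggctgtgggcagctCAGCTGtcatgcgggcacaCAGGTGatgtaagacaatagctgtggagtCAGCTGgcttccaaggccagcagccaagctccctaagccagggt
Chrnb1, chr11:69795938-69796187, minus strand: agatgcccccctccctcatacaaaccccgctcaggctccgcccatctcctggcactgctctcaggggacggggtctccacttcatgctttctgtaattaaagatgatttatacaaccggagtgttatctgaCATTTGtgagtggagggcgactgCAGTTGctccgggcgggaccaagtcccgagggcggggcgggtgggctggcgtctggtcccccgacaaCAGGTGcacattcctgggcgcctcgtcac
Chrne, chr11:70619195-70619444, minus strand: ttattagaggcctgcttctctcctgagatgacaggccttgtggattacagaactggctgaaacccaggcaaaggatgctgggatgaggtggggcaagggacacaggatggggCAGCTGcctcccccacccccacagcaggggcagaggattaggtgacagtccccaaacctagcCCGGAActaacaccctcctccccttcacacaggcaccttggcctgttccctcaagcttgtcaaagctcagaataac
Musk, chr4:58285712-58285961, plus strand: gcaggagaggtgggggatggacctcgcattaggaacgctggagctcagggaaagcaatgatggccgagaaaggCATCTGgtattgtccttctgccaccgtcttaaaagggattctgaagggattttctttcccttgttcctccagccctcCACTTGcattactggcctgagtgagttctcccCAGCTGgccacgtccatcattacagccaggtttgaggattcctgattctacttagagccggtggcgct
The Ache window, placed before the RefSeq start, lies inside the Ache gene as GENCODE M21 places it (chr5:137287519-137294466). It held 1 CANNTG match, CACGTG, beginning at base -199. Chrna1 held 3, of which those at -92 and -44 read CAGCTG. Chrnb1 and Musk held 3 each, with CAGCTG in Musk at -68, and Chrne held 1, CAGCTG at -138, and the CCGGAA match at -76. Over 32851 promoter windows of this length, 66.2% held CANNTG, 4271 windows held CAGCTG, which is one form of it, and 3952 windows held CCGGAA. A match of these letters is a description and not a binding site.

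Levels of different genes were compared in TPM, a share of all transcripts of a library that is scaled by transcript length. In control muscle Rapsn was highest at 10.5 ± 0.884 TPM (SD, n = 5), with Chrnb1 at 9.15 ± 1.60, Musk at 8.78 ± 3.62, Ache at 8.54 ± 1.38, Chrne at 6.13 ± 1.501 and Dok7 at 5.90 ± 2.20 TPM. The mean ± SD range of each of these 6 genes overlapped that of its neighbour in the order, while every Rapsn value, 9.53 to 11.7 TPM, was above every Chrne value, at most 8.59 TPM, and every Dok7 value, at most 9.24 TPM. Colq at 2.79 ± 0.575 and Chrna1 at 2.72 ± 0.443 TPM lay below them and overlapped each other, and Lrp4 at 0.970 ± 0.112 and Chrnd at 0.660 ± 0.185 TPM were lowest. In IgG muscle the order differed, with Chrnb1 at 19.7 ± 7.55 and Musk at 18.8 ± 9.42 TPM (SD, n = 4) on top, and Ache seventh at 2.45 ± 1.35 TPM. The 10 genes summed to 68.8 ± 1.504 TPM in anti-PD-L1, 52.5 ± 4.21 in anti-CD8a, 68.4 ± 8.91 in IgG and 56.2 ± 7.84 in control (SD).

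**Figure D1:**
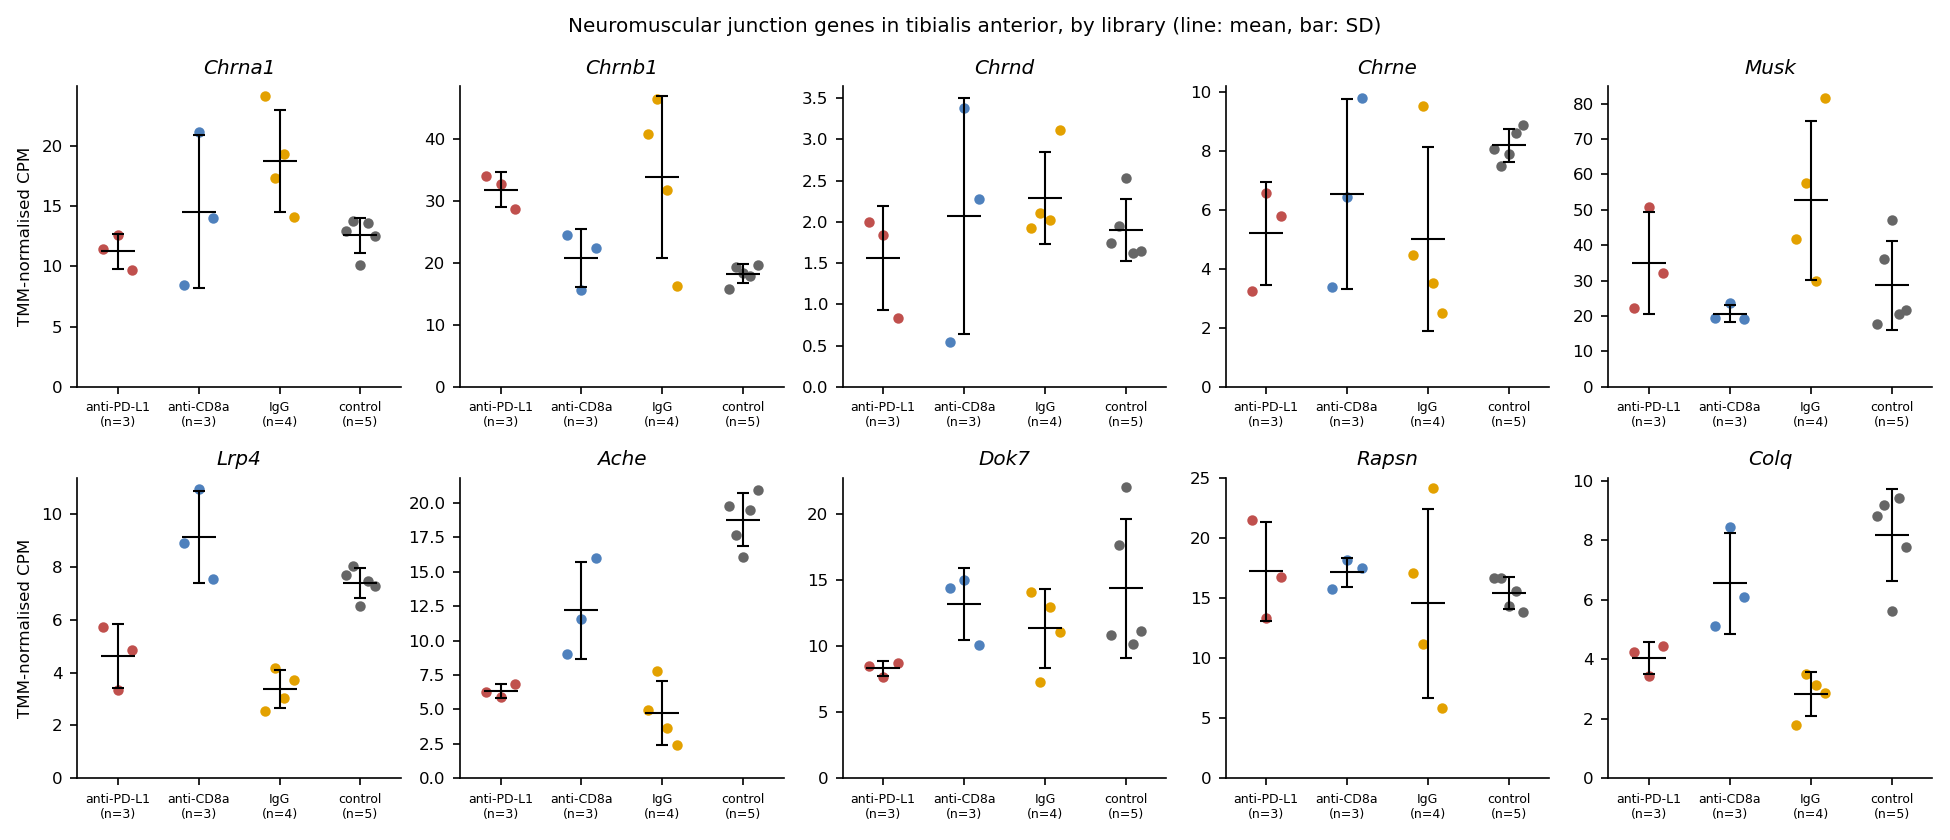
TMM-normalised CPM of the 10 neuromuscular junction genes in each library, by group, with the mean as a line and the SD as a bar; each panel has its own axis starting at 0. All IgG libraries lie below all control libraries for Lrp4, Ache and Colq, and above them for Chrna1.

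Set against control, IgG muscle had less Ache, Colq and Lrp4 and more Chrnb1, Musk and Chrna1. Muscle of anti-CD8a mice, set against IgG, had more Ache, Colq and Lrp4 and less Musk and Chrnb1, and none of the 10 genes was called against control. Muscle of anti-PD-L1 mice had no gene called against IgG, and 5 called against control. A gene was called at an adjusted p under 0.05 in edgeR's quasi-likelihood test over all 14372 genes that passed the filter on low counts, which all 10 junction genes passed. In bulk tissue, fewer cells of a type and less RNA per cell cannot be told apart. Comparisons that share a group share its libraries, so their values are set side by side and not as independent evidence.

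In IgG against control 6 of the 10 genes were called, where 58.5% of all genes tested were called. Of these 3 were higher, against 30.2% of all genes, and 3 lower, against 28.4%. With upper-quartile normalization 1 was called higher and 5 lower, and the median log2 fold change of all genes was -0.27. With TMM normalization, used throughout, the median log2 fold change was -0.21 over the 10 genes and -0.02 over all genes. The ranges of the 2 groups did not overlap for 4 of the 10 genes, against 47.7% of all genes. The share of genes called was thus near the share of all genes.

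In anti-CD8a against IgG 5 of the 10 were called, 3 higher and 2 lower, where 48% of all genes were called, 23.2% higher and 24.8% lower. The ranges did not overlap for 4 of the 10, against 47.8% of all genes, and the median log2 fold change was 0.22 over the 10 genes and 0.02 over all. In anti-PD-L1 against IgG 0 of 10 were called in edgeR, where 5.5% of all genes were called. Leaving out 1 library gave 147 (without anti-PD-L1 replicate 1) to 2712 genes called in all, with 162, 313 and 210 without IgG replicates 1, 3 and 4 and 158 without anti-PD-L1 replicate 3. The 10 genes had 1 called without IgG replicate 2, against 18.2% of all genes, and 1 without anti-PD-L1 replicate 2, against 18.5%. With all libraries 2 of the 10 had an unadjusted p under 0.05, DESeq2 called 1, and the ranges of 1 did not overlap, against 11.9% of all genes.

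Against control, anti-PD-L1 muscle had 5 of the 10 genes called, where 34.7% of all genes were called: 1 higher, against 20.8% of all genes, and 4 lower, against 13.9%. The ranges of 6 of the 10 did not overlap, against 37.8% of all genes, and the median log2 fold change was -0.47 over the 10 genes and 0.05 over all. Without anti-PD-L1 replicate 2 the 10 genes had 2 called, against 20.6% of all genes. In anti-CD8a against control edgeR called 0 of 10 and 0.0139% of all genes, 1 of the 10 had an unadjusted p under 0.05, and DESeq2 called 0. The ranges of 1 did not overlap, against 9.56% of all genes. In anti-PD-L1 against anti-CD8a 2 of the 10 were called, both lower, where 19.7% of all genes were called, and the ranges of 5 did not overlap, against 38.3% of all genes. All genes called there numbered 2836, and 1226 without anti-PD-L1 replicate 2, 1252 without anti-CD8a replicate 1 and 1311 without anti-CD8a replicate 2.

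**Figure D2:**
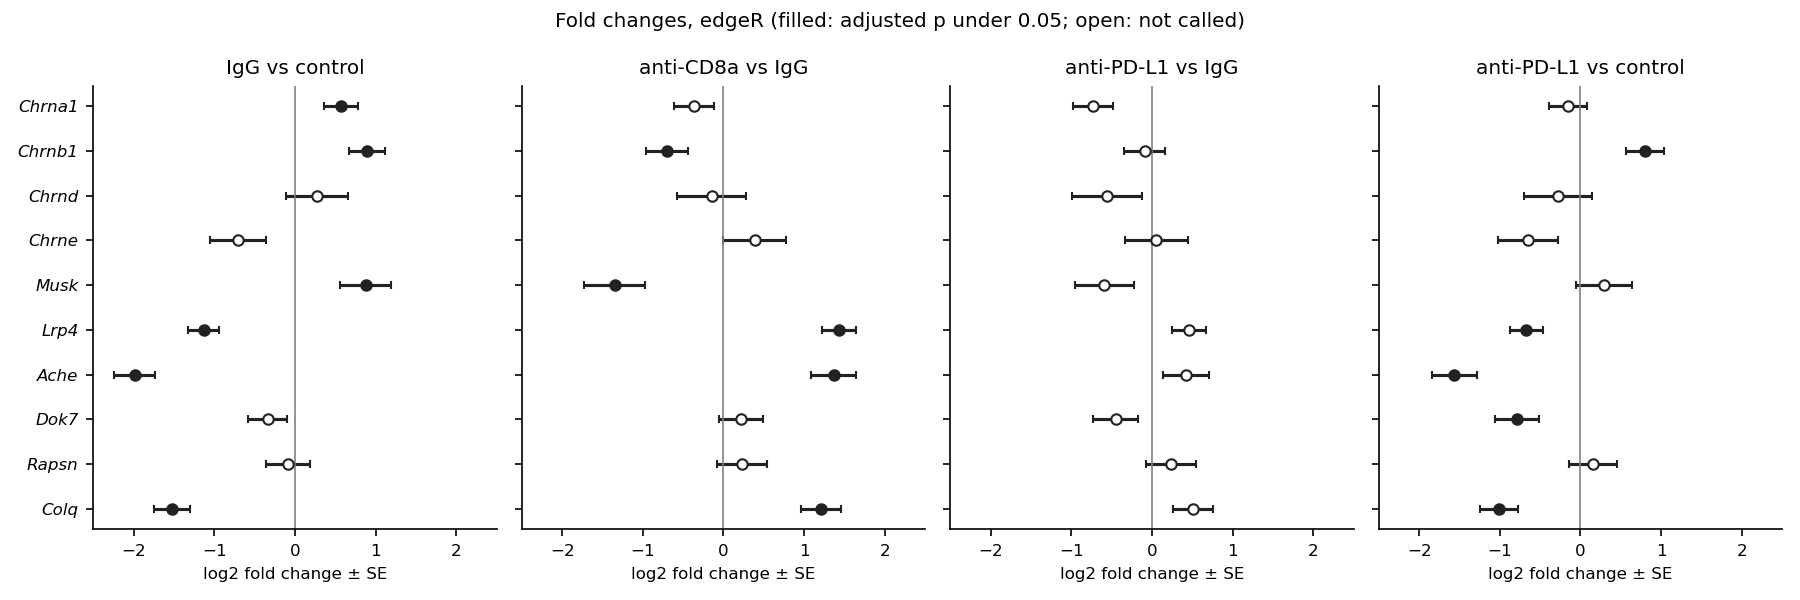
Log2 fold changes of the 10 genes (horizontal axis, ± SE) in 4 comparisons, with filled points for genes called at an adjusted p under 0.05 and open points for the others. Lrp4, Ache and Colq lie to the left in IgG against control and to the right in anti-CD8a against IgG, and no point is filled in anti-PD-L1 against IgG.

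Of the receptor subunits, Chrna1 encodes the alpha subunit, which carries the acetylcholine binding sites. It measured 11.4, 12.6 and 9.68 CPM in anti-PD-L1 libraries and 8.44, 21.1 and 14.0 CPM in anti-CD8a libraries, against 24.1, 17.3, 19.3 and 14.0 CPM in IgG and 12.9, 13.7, 10.1, 13.6 and 12.5 CPM in control. Every IgG library was above every control library and every anti-PD-L1 library, while the anti-CD8a libraries spread over the whole range. Chrna1 rose in IgG against control by 0.57 ± 0.21 in log2 (SE, adjusted p = 0.0301). The difference between anti-PD-L1 and IgG, -0.73 ± 0.25 (adjusted p = 0.0824), did not pass, and DESeq2 gave -0.78 (adjusted p = 0.0347). Against IgG, Chrna1 in anti-CD8a was not called (-0.37 ± 0.25, adjusted p = 0.231) and was called lower without anti-CD8a replicate 2 (-0.73, adjusted p = 0.0258). The call against control was lost with 1 library left out, namely control replicate 1, 3 or 5 or IgG replicate 1 or 3 (0.41 to 0.58, adjusted p 0.0504 to 0.128), and with upper-quartile normalization (0.32, adjusted p = 0.204).

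Chrnb1 encodes the beta subunit, which tethers the receptor to rapsyn. It measured 34.1, 32.9 and 28.7 CPM in anti-PD-L1 and 24.6, 15.6 and 22.4 CPM in anti-CD8a, against 41.0, 46.5, 31.9 and 16.4 CPM in IgG and 15.8, 19.5, 18.5, 17.9 and 19.7 CPM in control. IgG replicate 4 lay among the control libraries and the other IgG libraries above them all, as did all anti-PD-L1 libraries. Chrnb1 was higher in IgG than in control by 0.89 ± 0.22 in log2 (SE, adjusted p = 0.00271), a call kept under every alternative run, and higher in anti-PD-L1 than in control by 0.80 ± 0.24 (adjusted p = 0.0164). It was lower in anti-CD8a than in IgG by -0.70 ± 0.26 (adjusted p = 0.0333). That call was lost without IgG replicate 1 or 2 or anti-CD8a replicate 2 or 3 (-0.74 to -0.51, adjusted p 0.064 to 0.155), with upper-quartile normalization (-0.48, adjusted p = 0.136) and in a fit of only those 2 groups (-0.69, adjusted p = 0.108). The anti-PD-L1 call was lost without anti-PD-L1 replicate 1 (0.75, adjusted p = 0.051) or 2 (0.78, adjusted p = 0.0538).

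Chrnd, the delta subunit gene, was the least counted of the 10, with 10 to 63 counts in a library. It measured 2.002, 1.84 and 0.836 CPM in anti-PD-L1 and 0.545, 3.38 and 2.28 CPM in anti-CD8a, against 1.92, 2.11, 2.02 and 3.12 CPM in IgG and 1.74, 1.95, 2.53, 1.62 and 1.65 CPM in control. All groups overlapped and no comparison called it, with 0.27 ± 0.38 in log2 (SE, adjusted p = 0.553) in IgG against control.

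Chrne encodes the epsilon subunit of the adult receptor. It measured 3.24, 6.56 and 5.81 CPM in anti-PD-L1 and 3.38, 6.44 and 9.80 CPM in anti-CD8a, against 4.47, 9.51, 3.53 and 2.504 CPM in IgG and 8.07, 7.49, 7.88, 8.60 and 8.87 CPM in control. IgG replicate 2 was above every control library and the other IgG libraries below them all, and the anti-PD-L1 libraries were also below every control library. Neither difference was called: -0.71 ± 0.35 in log2 (SE, adjusted p = 0.0898) in IgG against control and -0.65 ± 0.37 (adjusted p = 0.189) in anti-PD-L1 against control, though a fit of only those last 2 groups called the second (-0.68, adjusted p = 0.0307). Without IgG replicate 2, Chrne was lower in IgG than in control by -1.22 (adjusted p = 0.00339) and higher in anti-CD8a than in IgG by 0.90 (adjusted p = 0.0362). In IgG against control it was also called lower with upper-quartile normalization (-0.95, adjusted p = 0.0305) and without a low-count filter (-0.72, adjusted p = 0.0437).

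The fetal receptor has a gamma subunit, encoded by Chrng, in place of epsilon, and denervated muscle makes it again. Chrng summed to 0 counts over the 3 anti-PD-L1 libraries, 3 over the 3 anti-CD8a libraries, 3 over the 4 IgG libraries and 17 over the 5 control libraries. It had 0 counts in 7 libraries and at most 5 in any, did not pass the filter, and no rise in tumour-bearing muscle was detectable at this depth. Another subunit gene, Chrna2, encodes an alpha subunit best known from neurons. It was higher in IgG, at 3.54 ± 1.94 CPM, against 0.654 ± 0.630 CPM in control (log2 2.45 ± 0.54 SE, adjusted p = 0.00112), though the ranges overlapped. In anti-PD-L1 Chrna2 measured 1.92 ± 1.03 CPM and was also called higher than in control (1.58 ± 0.58, adjusted p = 0.0446). In anti-CD8a it measured 2.32 ± 0.984 CPM and was not called against control (1.85 ± 0.58, adjusted p = 0.389). Of the 10 other receptor subunit genes listed 4 passed the filter, and Chrna10, at 1.17 ± 0.260 against 2.13 ± 0.460 CPM, was the one lower in IgG (adjusted p = 0.021). Against IgG, anti-CD8a had Chrna10 higher (1.11 ± 0.33) and Chrnb2 lower (-2.35 ± 0.78).

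The make-up of the receptor transcripts was also measured within each library. Chrne made up 17.4% ± 6.10 of the summed TPM of the 4 subunits in anti-PD-L1, 24.4% ± 8.93 in anti-CD8a, 14.2% ± 3.63 in IgG and 32.6% ± 2.64 in control (SD). All anti-PD-L1 libraries, at 10.4% to 21.6%, and all IgG libraries, at 11.6% to 19.5%, were below the control libraries, at 29.8% to 36.4%. Chrnb1 made up 69.4% ± 5.45 in anti-PD-L1, 54.6% ± 16.7 in anti-CD8a, 65.7% ± 4.99 in IgG and 49.0% ± 2.04 in control. The log2 ratio of Chrnb1 to Chrne was 2.24 ± 0.35 in IgG and 0.59 ± 0.17 in control (SD), a difference of 1.65, and that of Chrna1 to Chrne was 0.22 ± 0.72 in IgG and -1.16 ± 0.22 in control, a difference of 1.37. For both ratios the 4 IgG libraries were above the 5 control libraries, which gave a two-sided exact permutation p of 0.0159, the smallest that 4 against 5 can give. Over the 42 tests of 7 ratios in 6 comparisons, 7 had an unadjusted exact p under 0.05 and the smallest adjusted p was 0.167. Groups of this size allow no adjusted p under 0.0686 over these tests, so none could pass.

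**Figure D3:**
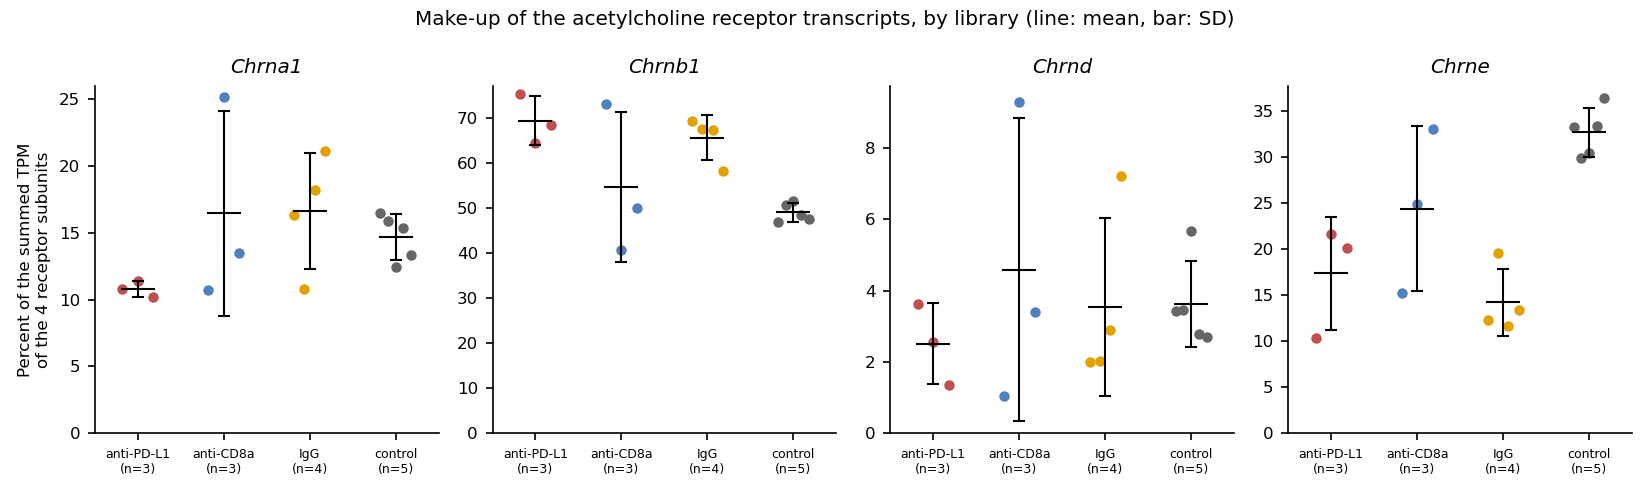
Percent of the summed TPM of the 4 acetylcholine receptor subunit genes that each gene contributed in each library, with group mean and SD. The Chrne share of the IgG libraries, 11.6% to 19.5%, lies below that of the control libraries, 29.8% to 36.4%, and the Chrnb1 share lies above.

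Among the organisers of the junction, Musk encodes the receptor kinase. It measured 22.4, 50.7 and 32.1 CPM in anti-PD-L1 and 19.4, 23.6 and 19.1 CPM in anti-CD8a, against 41.8, 57.5, 29.9 and 81.7 CPM in IgG and 17.8, 36.2, 47.1, 20.5 and 21.8 CPM in control. The anti-CD8a libraries were all below the IgG libraries, whereas IgG overlapped control, in which replicates 2 and 3 were high. Musk was lower in anti-CD8a than in IgG by -1.35 ± 0.38 in log2 (SE, adjusted p = 0.00833), a call kept under every alternative run, and higher in IgG than in control by 0.88 ± 0.32 (adjusted p = 0.0255). In that last comparison the call was lost without control replicate 1, 4 or 5 or IgG replicate 2 or 4 (0.59 to 0.84, adjusted p 0.0503 to 0.127), and with upper-quartile normalization (0.64, adjusted p = 0.0815).

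Lrp4, the agrin receptor, measured 5.72, 3.34 and 4.84 CPM in anti-PD-L1 and 8.88, 10.95 and 7.52 CPM in anti-CD8a, against 2.54, 4.15, 3.02 and 3.73 CPM in IgG and 7.68, 8.02, 6.50, 7.46 and 7.27 CPM in control. The IgG libraries were below all control and all anti-CD8a libraries, and the anti-PD-L1 libraries were below all control libraries, with replicate 2, at 3.34, inside the IgG range. Lrp4 fell in IgG against control by a log2 change of -1.13 ± 0.19 (SE, adjusted p = 0.000132) and was higher in anti-CD8a than in IgG by 1.44 ± 0.21 (adjusted p = 9.4e-05). Both calls were kept under every alternative run, as was the lower level in anti-PD-L1 than in anti-CD8a (-0.98 ± 0.22, adjusted p = 0.00829). The call in anti-PD-L1 against control (-0.67 ± 0.20, adjusted p = 0.0183) was lost without anti-PD-L1 replicate 2 (-0.48, adjusted p = 0.113), and without the same library the difference between anti-PD-L1 and IgG was called (0.65, higher in anti-PD-L1, adjusted p = 0.0464).

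Dok7, the activator of MuSK inside the fibre, measured 8.53, 7.67 and 8.75 CPM in anti-PD-L1 and 14.4, 15.03 and 10.1 CPM in anti-CD8a, against 14.1, 7.28, 12.98 and 11.1 CPM in IgG and 10.8, 17.7, 22.0, 10.2 and 11.1 CPM in control. The anti-PD-L1 libraries were below all control libraries, and the other groups overlapped control. Dok7 was lower in anti-PD-L1 than in control by -0.79 ± 0.27 in log2 (SE, adjusted p = 0.0326). The call was lost without control replicate 2 or 3 or any anti-PD-L1 replicate (-0.82 to -0.58, adjusted p 0.0583 to 0.114). In IgG against control Dok7 was not called (-0.34 ± 0.24, adjusted p = 0.239), except with upper-quartile normalization (-0.59, adjusted p = 0.0374).

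The proportions of receptor and kinase are given by their ratio within a library. The log2 ratio of Lrp4 to Musk was -2.49 ± 0.09 in anti-CD8a, -5.20 ± 0.44 in IgG and -3.08 ± 0.61 in control (SD), and all IgG libraries were below all libraries of the other 2 groups. The difference was -2.11 in IgG against control (two-sided exact permutation p = 0.0159, adjusted p = 0.167) and 2.71 in anti-CD8a against IgG (exact p = 0.0571, the smallest that 3 against 4 can give, adjusted p = 0.267). The ratio of Dok7 to Musk was -1.92 ± 0.85 in IgG and -0.55 ± 0.15 in control, a difference of -1.37 (exact p = 0.0159, adjusted p = 0.167).

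**Figure D4:**
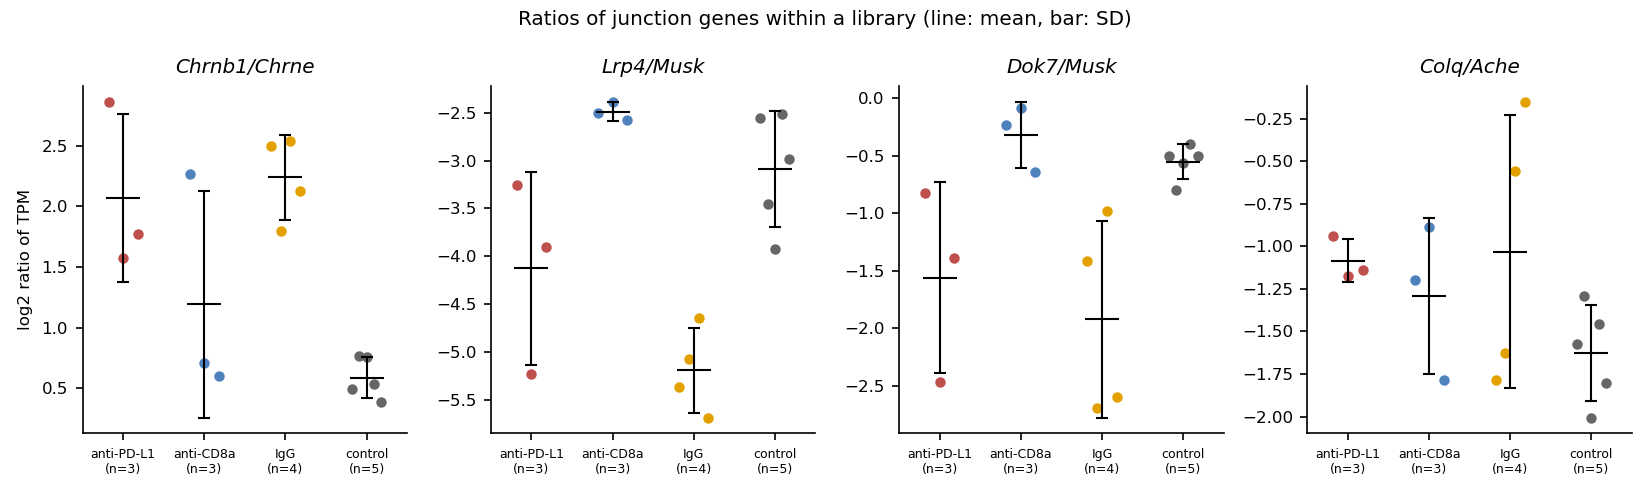
Log2 ratios of TPM between pairs of junction genes within each library, by group, with mean and SD. Chrnb1 to Chrne lies higher in the 4 IgG libraries than in the 5 control libraries, Lrp4 to Musk and Dok7 to Musk lie lower, and Colq to Ache overlaps.

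Rapsn, the scaffold of the receptor cluster, measured 21.5, 13.3 and 16.8 CPM in anti-PD-L1 and 15.8, 18.1 and 17.5 CPM in anti-CD8a, against 17.1, 11.2, 24.1 and 5.86 CPM in IgG and 16.7, 16.7, 14.4, 15.6 and 13.8 CPM in control. The group means were close and the IgG libraries spread on both sides of control. No comparison called Rapsn, and the log2 fold change was -0.08 ± 0.27 (SE, adjusted p = 0.811) in IgG against control.

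Ache and Colq, which encode the enzyme that ends the signal and the tail that anchors it, were lower in every tumour-bearing group on average. Ache measured 6.24, 5.91 and 6.86 CPM in anti-PD-L1 and 9.04, 11.5 and 15.99 CPM in anti-CD8a, against 4.97, 7.83, 3.65 and 2.44 CPM in IgG and 19.7, 17.6, 16.04, 19.5 and 20.9 CPM in control. Each tumour-bearing library was below each control library, though the highest anti-CD8a library lay just below the lowest control library, and the IgG libraries were below the anti-CD8a libraries. Ache fell in IgG against control by a log2 change of -1.99 ± 0.26 (SE, adjusted p = 1.2e-05), the largest change among the 10 genes, and in anti-PD-L1 against control by -1.56 ± 0.28 (adjusted p = 0.000704). It was higher in anti-CD8a than in IgG by 1.37 ± 0.28 (adjusted p = 0.00102). These 3 calls were kept under every alternative run. The difference between anti-CD8a and control, -0.62 ± 0.26 (adjusted p = 0.584), was not called.

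The direct comparison placed Ache lower in anti-PD-L1 than in anti-CD8a, by -0.94 ± 0.30 in log2 (SE, adjusted p = 0.0352). That call was lost without any anti-PD-L1 replicate, or without anti-CD8a replicate 2 or 3 (-1.004 to -0.71, adjusted p 0.0511 to 0.129). Against IgG, Ache in anti-PD-L1 was not called (0.42 ± 0.28, adjusted p = 0.344), and was called higher without IgG replicate 2 (0.78, adjusted p = 0.0382).

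Colq measured 4.24, 3.43 and 4.44 CPM in anti-PD-L1 and 5.12, 8.43 and 6.09 CPM in anti-CD8a, against 1.80, 3.49, 3.15 and 2.87 CPM in IgG and 8.80, 9.20, 5.64, 9.41 and 7.76 CPM in control. The IgG libraries were below all anti-CD8a and control libraries, and the anti-PD-L1 libraries were also below all control libraries. Colq was lower in IgG than in control by -1.53 ± 0.22 in log2 (SE, adjusted p = 3.5e-05) and in anti-PD-L1 than in control by -1.01 ± 0.24 (adjusted p = 0.00423), and higher in anti-CD8a than in IgG by 1.21 ± 0.25 (adjusted p = 0.000967). These calls were kept under every alternative run. Between anti-CD8a and control Colq overlapped and was not called (-0.32 ± 0.23, adjusted p = 0.824). Colq in anti-PD-L1 against anti-CD8a, -0.70 ± 0.26 (adjusted p = 0.067), was called by DESeq2 (-0.74, adjusted p = 0.0293) and with upper-quartile normalization (-0.81, adjusted p = 0.0499). The log2 ratio of Colq to Ache was -1.03 ± 0.80 in IgG and -1.63 ± 0.28 in control (SD) and overlapped (two-sided exact permutation p = 0.222, adjusted p = 0.346). In anti-PD-L1 it was -1.08 ± 0.13, above every control library (difference 0.54, exact permutation p = 0.0357, the smallest that 3 against 5 can give, adjusted p = 0.214).

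Other parts of the synapse were read from 9 further gene lists. Their counts stand against the shares of all genes, 30.2% higher and 28.4% lower in IgG against control and 23.2% higher and 24.8% lower in anti-CD8a against IgG, and nothing particular to a list is read from them. Of 16 other genes of the agrin and MuSK pathway, 5 were higher and 4 lower in IgG than in control, with a median log2 fold change of -0.08, so the share called was close to that of all genes. The kinase Tnk2 was lower, at 12.6 ± 4.38 CPM in IgG and 27.9 ± 4.24 CPM in control (SD; log2 -1.15 ± 0.23 SE, adjusted p = 0.00046). The kinase Pak1 was lower by -1.09 ± 0.20, and the Wnt adaptor Dvl2 and the actin regulator Cttn were higher by 0.84 ± 0.18 and 0.77 ± 0.14. Agrn itself was not called (-0.14 ± 0.18, adjusted p = 0.512). In anti-CD8a against IgG 4 of the 16 were higher, Tnk2 (1.10 ± 0.25) and Pak1 (0.87 ± 0.22) among them, and 5 lower, Dvl2 (-0.57 ± 0.20) and Cttn (-0.68 ± 0.16) among them.

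Of 5 tested genes of neuregulin signalling, a second route from nerve to synaptic nuclei, 1 was higher in IgG than in control. It was Gabpa, the DNA-binding subunit of GABP, at 50.1 ± 10.2 CPM in IgG and 27.0 ± 1.54 CPM in control (SD; log2 0.89 ± 0.12 SE, adjusted p = 2.19e-05), and it was the one lower in anti-CD8a than in IgG (-0.83 ± 0.14). Among 10 E-box factors and their inhibitors 2 were higher, Id2 (0.55 ± 0.21) and Tcf12 (0.49 ± 0.11), and 2 lower, Myod1 (-1.57 ± 0.50) and Tcf4 (-0.57 ± 0.13), in IgG than in control. In anti-CD8a against IgG 1 was higher, Tcf4 (0.58 ± 0.15), and 1 lower, Tcf12 (-0.42 ± 0.13).

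The utrophin scaffold list, 10 genes of the postsynaptic membrane skeleton and nuclear anchoring, had 4 higher and 2 lower in IgG than in control. Syne1, which anchors nuclei under the synapse, measured 252 ± 123 CPM in IgG and 50.7 ± 8.26 CPM in control (SD; log2 2.31 ± 0.27 SE, adjusted p = 5.02e-06). Ank3, which encodes ankyrin-G, was higher by 1.95 ± 0.15, and Sntb1 was lower by -1.12 ± 0.38. Of 11 genes of the synaptic basal lamina 5 were lower and 1, Lama5, higher (1.29 ± 0.24), with a median of -0.62 against -0.02 for all genes. The lower genes were the collagen chains Col4a5 (-2.91 ± 0.52) and Col4a3 (-1.83 ± 0.40), the laminin chain Lama4 (-1.42 ± 0.30), Nid2 (-1.42 ± 0.19) and Hspg2 (-1.05 ± 0.22), the gene of perlecan, which binds ColQ. Col4a5 averaged 0.337 CPM in IgG, so its size of change rests on few counts. In anti-CD8a against IgG the scaffold list had 2 higher and 4 lower, with Syne1 lower by -2.22 ± 0.32 and Ank3 by -1.94 ± 0.18, and the basal lamina list had 3 higher and 3 lower, with Lama4 higher by 1.11 ± 0.32 and Nid2 by 0.69 ± 0.21.

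Of the 3 cholinesterase partners all were called in IgG against control, where 58.5% of all genes were. Prima1, the membrane anchor of acetylcholinesterase, was lower at 0.320 ± 0.399 CPM, against 1.64 ± 0.361 CPM in control (SD; log2 -2.32 ± 0.58 SE, adjusted p = 0.00292). Bche, the second cholinesterase, was higher at 12.8 ± 0.991 CPM, against 6.49 ± 0.886 CPM (0.97 ± 0.20, adjusted p = 0.000566), and P4hb, a subunit of the enzyme that hydroxylates collagen tails, was higher by 1.00 ± 0.15. Muscle of anti-CD8a mice, against IgG, had Prima1 higher (1.76 ± 0.64) and Bche (-0.92 ± 0.23) and P4hb (-0.76 ± 0.18) lower. Of 5 glycosylation enzymes whose human genes are mutated in congenital myasthenia, Alg2 (-1.70 ± 0.36) and Alg14 (-0.90 ± 0.24) were lower in IgG than in control and higher in anti-CD8a than in IgG (1.73 ± 0.39 and 0.90 ± 0.26).

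Another list held 9 genes of the denervation response, not all of which rise when muscle loses its nerve. Of these 9, 7 were higher in IgG than in control and 0 lower. Their median log2 fold change was 2.29, against -0.02 for all genes. Runx1 measured 26.2 ± 9.28 CPM in IgG and 2.19 ± 1.17 CPM in control (SD; log2 3.59 ± 0.34 SE, adjusted p = 1.07e-06). Gadd45a measured 65.5 ± 21.5 against 13.4 ± 4.28 CPM (2.29 ± 0.32), and Ncam1 6.33 ± 1.11 against 4.05 ± 0.608 CPM (0.65 ± 0.22, adjusted p = 0.0191). Myog, the E-box factor most tied to denervation, is counted in the E-box list and was not called (0.67 ± 0.31, adjusted p = 0.0751). In the denervation list 2 genes were not called, Dach2 (-0.46 ± 0.34) among them. The list holds the ubiquitin ligases Trim63 and Fbxo32, which rise in other forms of wasting too and were higher by 3.20 ± 0.45 and 3.12 ± 0.25. In anti-CD8a against IgG 6 of the 9 were lower and 1, Dach2, higher (1.20 ± 0.37), with a median of -2.04 against 0.02 for all genes. In anti-PD-L1 against IgG, the lists had 1 gene higher, Nid2 (0.88 ± 0.21, adjusted p = 0.0301). They had 3 lower, Runx1 (-1.44 ± 0.36, adjusted p = 0.0349), the laminin gene Lama5 (-1.02 ± 0.28) and Ank3 (-0.78 ± 0.17, adjusted p = 0.0225). Of all genes tested there 3.96% were higher and 1.54% lower, and nothing particular to a list is read from these 4 genes. All 4 calls were kept without IgG replicate 2 and without anti-PD-L1 replicate 2. In these 2 settings other list genes were called too, where 18.2% and 18.5% of all genes were called. Among them were Gabpa, lower (-0.56, adjusted p = 0.0154, and -0.54, adjusted p = 0.0338), and Lama4, higher (1.20, adjusted p = 0.0148, and 1.04, adjusted p = 0.0442). The first 4 calls were lost without IgG replicate 1 (adjusted p 0.0592 to 0.112), anti-PD-L1 replicate 1 (0.0883 to 0.18) or anti-PD-L1 replicate 3 (0.118 to 0.166). Of those 4 genes, Nid2 alone was still called without IgG replicate 3 and Lama5 alone without IgG replicate 4. The denervation list had 6 or 7 of 9 higher and 0 lower in IgG against control without any 1 IgG library.

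**Figure D5:**
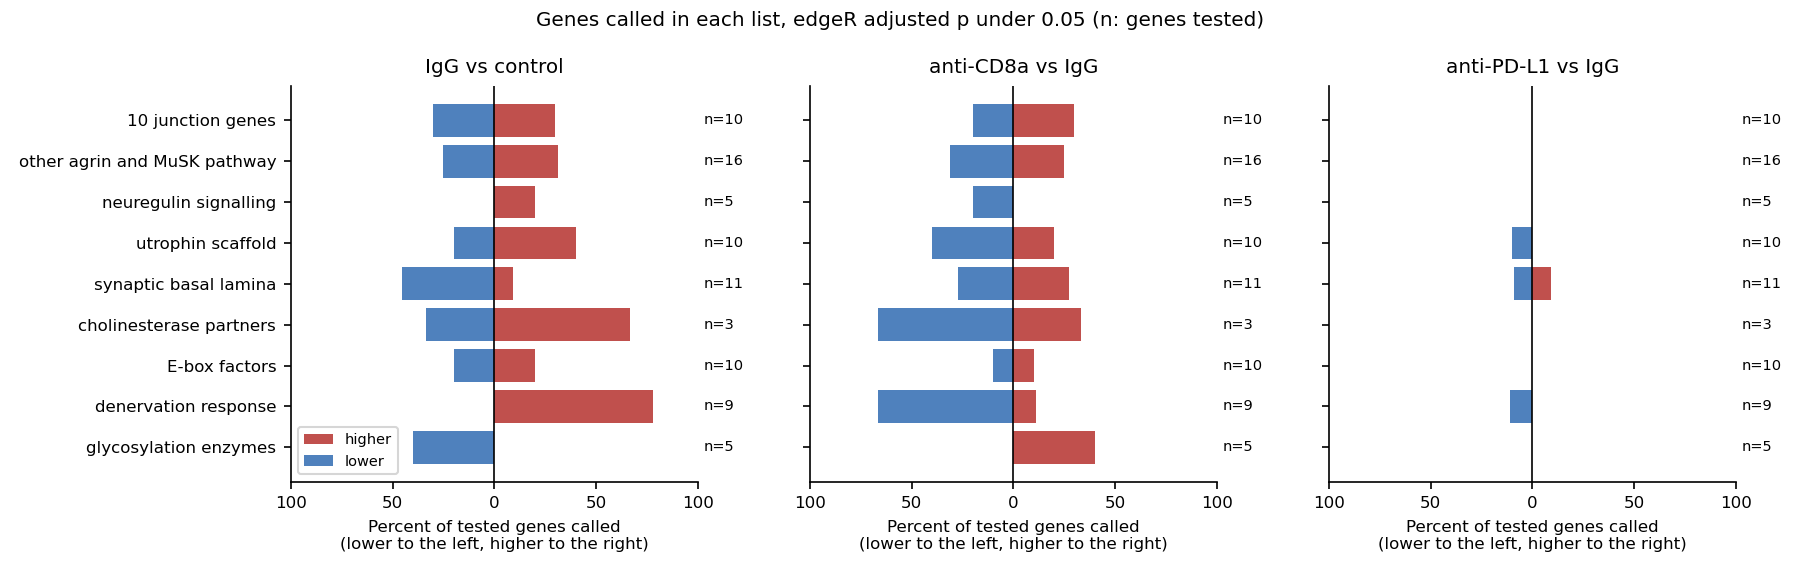
Percent of the tested genes of each list called higher (right of 0) and lower (left of 0) in 3 comparisons, with the number of genes tested at the right. In IgG against control the denervation list is 7 of 9 higher and the 10 junction genes are 3 higher and 3 lower. Of all genes, 30.2% were higher and 28.4% lower there. The lists were chosen with earlier results of these data known, and nothing particular to a list is read from the counts.

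Markers of other cells moved with these groups. The 7 Schwann cell markers, of the cells that cover nerve endings and axons, summed to 31.3 to 77.8 CPM in anti-PD-L1, 27.4 to 104 in anti-CD8a, 21.0 to 80.7 in IgG and 71.7 to 247 in control. In IgG against control 5 of the 7 were lower and 0 higher, where 28.4% of all genes were lower, and in anti-CD8a against IgG 2 were higher and 0 lower, where 23.2% of all genes were higher. Of the 5 satellite cell markers 4 were lower in IgG than in control and Cdh15 was higher (1.19 ± 0.21 in log2), with sums of 35.7 to 50.7 CPM in anti-PD-L1, 32.0 to 38.7 in anti-CD8a, 27.1 to 57.4 in IgG and 30.6 to 37.4 in control. Of the 8 myofibre markers 4 were lower and 1 higher in IgG than in control. The fibroblast list had 4 of 5 lower, the macrophage list 5 of 6 lower and 1 higher, and the endothelial list 1 of 4 lower, Cdh5 (-0.61 ± 0.23), in the same comparison. In anti-PD-L1 against IgG 5 of the 6 macrophage and 3 of the 5 fibroblast markers were higher and 0 lower. Of all genes, 3.96% were higher and 1.54% lower there. With 1 library left out, 147 to 2712 genes were called in all in that comparison, and the marker counts given are for all libraries. In anti-CD8a against IgG 4 macrophage markers were higher and 1 lower, and 3 fibroblast markers were higher. Of all genes, 23.2% were higher and 24.8% lower there. The macrophage markers summed to 149 to 520 CPM in anti-PD-L1, 54.4 to 196 in anti-CD8a, 52.1 to 90.1 in IgG and 73.9 to 140 in control. The fibroblast markers summed to 1002 to 1255 CPM in anti-PD-L1, 679 to 734 in anti-CD8a, 484 to 668 in IgG and 783 to 1118 in control. Most of the fibroblast sum was Dcn, on average 1047, 524, 576 and 628 CPM in the same order. Col1a1 averaged 9.03, 53.5, 3.44 and 101 CPM and Col3a1 15.6, 80.7, 6.00 and 197 CPM. In anti-PD-L1 against control 1 of the 5 fibroblast markers was higher and 2 lower, where 20.8% and 13.9% of all genes were. Of 5 T cell markers 1 passed the filter, Cd3e, which was lower in IgG than in control (-4.06 ± 0.85). Cd3e was higher in anti-CD8a than in IgG (2.83) and lower in anti-PD-L1 than in control (-2.82). It averaged 0.114 CPM in anti-PD-L1, 0.371 in anti-CD8a, 0.0454 in IgG and 0.874 in control. With at most 25 counts in a library, these changes rest on few counts. Of 5 motor neuron markers 0 passed. The part of these cells in the levels of the junction genes was not tested.

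The mean transcript length that RSEM assigns to a gene, weighted by its isoforms, was compared as a readout apart from the counts. Chrna1 has 1 transcript and was left out. Over 54 tests no adjusted p under 0.0686 was possible, so none could pass, and 1 had an unadjusted exact permutation p under 0.05: Dok7, at 2743 ± 17.6 bases in IgG and 2427 ± 270 bases in control (SD; two-sided exact p = 0.0317, adjusted p = 0.964). Rapsn overlaps an antisense transcript, Gm13778, which had 0 to 10 counts in a library, and the genes whose exons overlap Ache and Colq had 0 counts. The strand setting of the counting was not given in the sources used here.

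The genes closest in pattern were sought among 11468 genes by the Pearson correlation of log2 CPM over the 15 libraries. The libraries fall into the 4 groups, so the values include the differences between groups and are descriptions. The closest was Ptdss1 to Lrp4, at r = 0.987, with Angpt1 next at 0.970. Ache was closest to Tmcc2 (r = 0.971), Ufsp1 (0.965) and Cmc2 (0.964). Ufsp1 begins 163 bases downstream of Ache on the same strand, at chr5:137294629-137295665 in GRCm38 (GENCODE M21), where Ache lies at chr5:137287519-137294466. Colq was closest to Smco4 (r = 0.955), Musk to Tom1l2 (0.925), Chrnb1 to Ccdc57 (0.901), Chrne to Mgat3 (0.887), Dok7 to P2ry2 (0.857), Chrnd to Myl10 (0.841), Rapsn to Cuedc2 (0.835) and Chrna1 to Mbd2 (0.737). Among the 10 genes themselves, Lrp4 and Colq (r = 0.900), Ache and Colq (0.867) and Chrne and Ache (0.801) were most alike, and Chrnb1 and Colq least (-0.72).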

How the data were processed

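Total RNA of 15 tibialis anterior libraries was prepared with the MGIEasy RNA Directional kit, per the labels' protocols. Reads were trimmed with Trim Galore and processed with STAR 2.7.9a and RSEM 1.3.3, per the submitters' processing notes. The sources used here name no genome build, annotation or strand setting for the authors' counting. The deposited files hold RSEM expected counts, TPM and mean transcript length in bases for each gene, per the file headers. Symbols were matched for 52083 of 55416 gene identifiers, and genes without one took at most 0.386% of a library. Expected counts were rounded to whole numbers before testing.

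All 15 libraries entered 1 model in edgeR 4.0.16 under R 4.3.3, after filterByExpr and TMM scaling, with group as the only term and 11 residual degrees of freedom. Each of the 6 pairs of groups was compared by the quasi-likelihood test, with p-values adjusted by Benjamini-Hochberg over the 14372 genes tested. The SE of a log2 fold change was taken from the fold change and the F statistic. CPM are TMM-normalised, and log2 CPM used a prior count of 2. Log2 ratios of TPM and RSEM lengths were compared by two-sided exact permutation tests over libraries (scipy 1.17.1), adjusted over all ratios or lengths. The fit was tested on simulated data. A count of 0 allows 3 counts in a library. Such limits were scaled to the library total without TMM and cover counting error only.

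All 10 genes were named in every comparison. From each of 9 other lists, up to 4 genes called in IgG against control with the largest change were named, and the remaining list genes and the 8 lists of cell type markers were named after their values were seen. A gene that this rule names is not reported here. The members and lists were chosen with earlier results of these data known. Promoter sequences are from RefSeq and gene positions from GENCODE M21. Alternatives were another normalization, no low-count filter, a replicate block, DESeq2 1.42.0, only the compared groups, and leaving out libraries. Leaving out IgG and anti-PD-L1 libraries for the other gene lists was chosen after seeing the data.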

Additional observations from a re-analysis of the deposited data

Results flagged for a closer look

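Chrnd, the delta subunit gene, measured 3.115 CPM in IgG replicate 4, far above the other IgG libraries, of which the nearest measured 2.107 CPM. The gap was 0.847 of the range of the group, over the critical value of 0.829 for 4 libraries. Over the 20 groups of libraries looked at, 1 such library was found, and chance alone flags about 1 group in 20. Chrnd was called in no comparison with or without this library.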

How the results depend on the processing

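No member's log2 fold change that was called changed sign under any alternative. Of the single fold changes of the 10 genes under the alternatives, 744 kept their side of the threshold, 39 lost and 17 gained a call. The tests of ratios could not pass their threshold, so their alternatives say nothing on stability. With the replicate block, the genes called numbered 3 in anti-PD-L1 against control and 1 in anti-PD-L1 against anti-CD8a, and 4 in IgG against control. Under the block the calls of Chrna1 (adjusted p = 0.067) and Musk (0.0634) in IgG against control, Chrnb1 (0.0879) and Lrp4 (0.0797) in anti-PD-L1 against control and Ache (0.0749) in anti-PD-L1 against anti-CD8a did not pass. The replicate numbers did not pair the libraries: same-numbered libraries correlated at -0.345 to 0.180, and in 2 of 19 pairings a library was closest to its own number. DESeq2 called 1 gene in anti-PD-L1 against IgG. Leaving out 1 library in turn gave 4 to 6 genes in IgG against control, 4 to 5 in anti-CD8a against IgG, 0 to 1 in anti-PD-L1 against IgG, 2 to 5 in anti-PD-L1 against control, 1 to 2 in anti-PD-L1 against anti-CD8a and 0 in anti-CD8a against control. With IgG replicate 2 and also replicate 2 of anti-PD-L1 left out, 3 genes were called in anti-PD-L1 against IgG (Lrp4 0.77 and Ache 0.83 higher, Chrna1 -0.86 lower), where 28.8% of all genes were called, and 3 in anti-PD-L1 against control. These 2 libraries were picked by their place on the first principal component of these same data. Leaving them out moves anti-PD-L1 and IgG apart by the choice itself, so the added calls are not separate evidence. Any other cause was not tested. Upper-quartile normalization moved the median of all genes in IgG against control from -0.02 to -0.27, and there 6 genes were called, 1 higher and 5 lower, against 3 and 3 with TMM. Groups of 3 to 5 libraries limit what could pass, and Chrnd rests on as few as 10 counts.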
